A study of Mus musculus with 10 samples.

Results

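A set of 10 genes of the major histocompatibility complex (MHC) class I presentation pathway was read out in young and old mouse aortae. They were chosen by symbol, as 10 of the 55453 gene symbols in the count table. They are the class I heavy chains *H2-K1*, *H2-D1*, *H2-Q4*, *H2-Q7* and *H2-T23*, the shared light chain *B2m*, the peptide loading genes *Tap1*, *Tap2* and *Tapbp*, and the regulator *Nlrc5*. RNA was sequenced from whole aortae of male C57BL/6 mice, 5 young (14.5 weeks) and 5 old (92.5 weeks), with 1 library per mouse. The labels name no transgene or agent in either group, and young and old tissue was taken on one occasion. Aortae were perfused with saline and cleared of surrounding fat, and smooth muscle, endothelium, fibroblasts and resident immune cells were measured together.

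Class I molecules display peptides from inside the cell to CD8 T cells and natural killer cells. The proteasome cuts proteins into peptides, the *Tap1* and *Tap2* transporter carries them into the endoplasmic reticulum, and tapasin (*Tapbp*) holds the empty heavy chain beside the transporter until a peptide binds. A heavy chain reaches the surface only with beta-2 microglobulin. NLRC5 is a transactivator that acts on class I promoters through a complex on the X and Y boxes, and interferons raise the pathway in most cell types, endothelium included.

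The promoters of the heavy chains and of *B2m* are shown. These genes varied together between mice, as did *Tap1*, whose window is not printed. A RefSeq window of 250 bases before to 50 bases after the start (GRCm38.p6) was found for 8 of the 10 genes. For each gene below, the 180 bases before the RefSeq start are given 5′ to 3′ on the gene's strand. Gene positions further below come from another annotation (GENCODE), whose starts can differ. By it, the *H2-D1* stretch lies inside the gene, and most of the *H2-T23* stretch does. Capitals mark CCAAT (the letters of a Y box) and TGACG (the letters of an X2-like cAMP response element core). They also mark the core of an interferon-stimulated response element and the kappaB site of the class I enhancer A. All were searched on either strand (ATTGG is CCAAT on the other strand).
*H2-K1* (chr17:34000334-34000513, minus strand): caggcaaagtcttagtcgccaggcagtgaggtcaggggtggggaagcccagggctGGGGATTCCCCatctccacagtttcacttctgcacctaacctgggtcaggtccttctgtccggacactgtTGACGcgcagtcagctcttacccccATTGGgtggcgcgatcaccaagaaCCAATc
*H2-D1* (chr17:35262914-35263093, plus strand): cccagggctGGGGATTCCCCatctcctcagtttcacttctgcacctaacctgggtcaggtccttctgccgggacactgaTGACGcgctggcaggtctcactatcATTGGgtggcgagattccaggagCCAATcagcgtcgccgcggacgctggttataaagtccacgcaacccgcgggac
*H2-Q4* (chr17:35379437-35379616, plus strand): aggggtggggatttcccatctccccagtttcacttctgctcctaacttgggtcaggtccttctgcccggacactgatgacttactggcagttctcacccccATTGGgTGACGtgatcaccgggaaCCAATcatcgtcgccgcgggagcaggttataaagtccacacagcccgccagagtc
*H2-Q7* (chr17:35438975-35439154, plus strand): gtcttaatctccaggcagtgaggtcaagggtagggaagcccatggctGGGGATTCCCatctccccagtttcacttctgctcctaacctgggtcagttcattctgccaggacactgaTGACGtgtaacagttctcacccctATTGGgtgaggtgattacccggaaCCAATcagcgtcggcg
*H2-T23* (chr17:36032702-36032881, minus strand): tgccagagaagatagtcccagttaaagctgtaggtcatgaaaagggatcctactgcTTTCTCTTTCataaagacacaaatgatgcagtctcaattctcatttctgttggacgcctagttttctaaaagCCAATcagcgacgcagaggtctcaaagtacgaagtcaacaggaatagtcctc
*B2m* (chr2:122147507-122147686, plus strand): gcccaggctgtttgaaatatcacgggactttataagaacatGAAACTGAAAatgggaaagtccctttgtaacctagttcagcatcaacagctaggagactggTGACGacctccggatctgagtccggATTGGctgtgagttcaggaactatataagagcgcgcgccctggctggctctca

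CCAAT occurred in the windows of 8 of 8 members and in 37.4% of all 32851 windows. TGACG occurred for 6 members (*B2m*, *H2-D1*, *H2-K1*, *H2-Q4*, *H2-Q7* and *Tap1*), and in 20.8% of all windows. The kappaB site, searched in a fixed spelling only, was held by *H2-K1*, *H2-D1* and *H2-Q7* and by 0.323% of all windows. It reads nearly the same on both strands, so that hits on the 2 strands overlap. Other spellings of the kappaB site were not searched, so that *H2-Q4*, *B2m* and the other members were not shown to lack one. The interferon-stimulated response element core, searched in a fixed spelling only, occurred for *B2m* and *H2-T23*, against 3.44% of all windows. Variant forms of interferon elements were not searched, so that the other members were not shown to lack one. The windows of *H2-K1*, *H2-D1*, *H2-Q4* and *H2-Q7* also shared an unbroken run of 15 bases, cagtttcacttctgc, which otherwise occurred only in those of *H2-Q6* and *H2-Q10*. Whether this shared run holds a form of interferon element was not tested. All these matches describe letters and not bound sites, and the order and spacing of motifs played no part in the search. In *H2-Q4*, TGACG (73 bases before the start) lay after ATTGG (79 bases before it). In *H2-K1*, *H2-D1* and *H2-Q7*, TGACG lay before ATTGG.

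Total counts on genes ran from 19640401 to 22886153 per library. Old replicate 2 stood apart in its mitochondrial share, at 11% of counts against 4.50% to 6.51% in the other 9 libraries, and members whose fold change it moves are also given without it. Of all 14614 genes tested, 11.5% were called at a Benjamini-Hochberg adjusted p below 0.05 in edgeR's quasi-likelihood test, 6.48% as higher and 4.99% as lower in old aortae. Smooth muscle markers (*Myh11*, *Acta2*, *Tagln*, *Cnn1* and *Smtn*) held 716240 to 924170 normalised counts in every library. The sum of 5 endothelial markers (*Pecam1*, *Cdh5*, *Vwf*, *Kdr* and *Tie1*) ran from 18019 to 30970 in young and from 9069.3 to 21066 in old aortae. The sum of 5 leukocyte markers ran from 776.65 to 1225.4 in young and from 1233.2 to 2877.1 in old aortae. Among leukocyte markers *Laptm5* and *Coro1a* (2 of 5) were called higher, and among macrophage markers *Cd68*, *Adgre1* and *Fcgr1* (3 of 5). *Cd209a* was called higher among 3 tested dendritic cell markers, and 0 of 3 tested B cell markers were called. Of 6 T cell markers only *Cd3g* and *Cd4* passed the low-count filter, and both were called higher. They passed it through their old counts (young aortae had 0 to 8.97 and 5.98 to 13.3), so that these 2 calls partly follow from the filter. In whole tissue, fewer cells of a type and less RNA per cell cannot be told apart.

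Normalised counts (counts scaled between libraries with DESeq2 size factors) were divided by exonic length to order the genes within an aorta. *B2m* was the most abundant, at 12622 ± 1148.5 normalised counts per kilobase (SD, n = 5) in young aortae. It was followed by *H2-D1* (3190.9 ± 320.2), *H2-K1* (1818.6 ± 250.4) and *Tapbp* (1011.7 ± 71.2), and the ranges of these 4 genes did not overlap in either age group. *H2-T23* (332 ± 33.2) and *H2-Q4* (309 ± 101) overlapped, as did *H2-Q4* and *Tap2* (206 ± 29.1). *Tap1* (53.7 ± 15.8), *H2-Q7* (51.8 ± 24.4) and *Nlrc5* (19.2 ± 7.31) were the lowest, with overlap between neighbours. All 10 genes kept the same rank in old aortae.

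**Figure D1:**
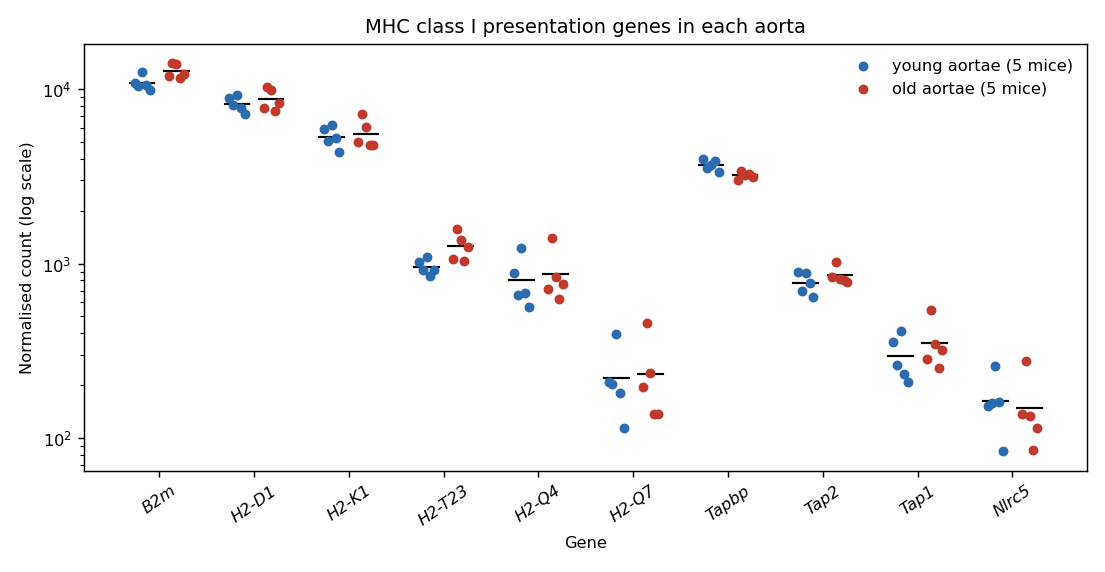
Normalised counts (log scale) of the 10 class I presentation genes in each aorta, with 5 young (blue) and 5 old (red) mice per gene and a black line at each group mean. Old and young points overlap for every gene, including *H2-T23*, whose mean was 959 in young and 1257 in old aortae.

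*H2-K1* and *H2-D1* encode the classical heavy chains of this strain, which present peptides to CD8 T cells. *H2-K1* (chromosome 17, 33996017 to 34000347) had 5908, 5019, 6208, 5226 and 4354 normalised counts in young replicates 1 to 5. In old replicates 1 to 5 it had 4992, 7167, 6066, 4773 and 4778. The groups overlapped over most of their range, and only old replicate 2 lay above every young aorta. The log2 fold change (old over young) was 0.06 (SE 0.13, edgeR, adjusted p = 0.803), and its 95% interval allowed from 0.860-fold to 1.27-fold.

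*H2-D1* (chromosome 17, 35262730 to 35267499) had 8886, 8068, 9213, 7815 and 7165 normalised counts in young aortae and 7796, 10274, 9844, 7532 and 8319 in old aortae. Old replicates 2 and 3 were the highest, and the other 3 old aortae lay within the young range. Its log2 fold change was 0.10 (SE 0.10, edgeR, adjusted p = 0.585), with a 95% interval from 0.922-fold to 1.24-fold. Without old replicate 2 the log2 fold changes were -0.0499 for *H2-K1* and 0.03 for *H2-D1*, neither called.

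*H2-T23* was the member called higher in old aortae. It encodes the nonclassical chain Qa-1, which presents leader peptides of other class I chains to the CD94/NKG2A receptor. *H2-T23* (chromosome 17, 36029773 to 36032855) had 1018, 922, 1092, 847 and 918 normalised counts in young aortae and 1063, 1580, 1358, 1034 and 1250 in old aortae. Old replicates 2, 3 and 5 lay above every young aorta, whereas old replicates 1 and 4 lay below young replicate 3. The log2 fold change was 0.40 (SE 0.11, edgeR, adjusted p = 0.0412), or 1.32-fold with a 95% interval from 1.11-fold to 1.56-fold. The call was lost without old replicate 2 (log2 fold change 0.30, edgeR, adjusted p = 0.0713) and without any of young replicates 2, 4 and 5 or old replicates 3 and 5, with adjusted p up to 0.102 in edgeR.

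*H2-Q4* and *H2-Q7* encode nonclassical chains of the Q region, and the *H2-Q7* product (Qa-2) is held in the membrane by a lipid anchor. *H2-Q4* (chromosome 17, 35379617 to 35385290) had 884, 661, 1223, 679 and 567 normalised counts in young aortae and 718, 1398, 836, 627 and 764 in old aortae. *H2-Q7* (chromosome 17, 35439155 to 35443773) had 211, 205, 394, 181 and 115 in young and 195, 458, 235, 137 and 138 in old aortae. Both genes were highest in young replicate 3 and old replicate 2, and their groups overlapped almost completely. Log2 fold changes were 0.12 for *H2-Q4* (SE 0.26, edgeR, adjusted p = 0.823) and 0.08 for *H2-Q7* (SE 0.40, edgeR, adjusted p = 0.932). The 95% interval of *H2-Q7* reached from 0.563-fold to 1.97-fold, so that a change of nearly that size in either direction was not excluded with 5 mice per group. Both log2 fold changes turned negative without old replicate 2, to -0.12 for *H2-Q4* and -0.32 for *H2-Q7*, again without a call.

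The heavy chains are near copies of each other, and the sources used here do not give the treatment of reads with several alignments. Of 50-base windows in the transcripts, 36.4% of *H2-Q4*, 26.4% of *H2-Q7*, 14.5% of *H2-T23*, 12.8% of *H2-D1* and 9.63% of *H2-K1* also occur in transcripts of other genes. Counts of *H2-Q4* and *H2-Q7* in particular are uncertain between genes. For *H2-Q4* the gene sharing most windows was *Gm11131* (15.3%), which overlaps 19.1% of its exonic sequence on the other strand, so that not all sharing is between paralogs. *B2m*, by contrast, shared none of its windows with another gene.

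*B2m* (chromosome 2, 122147686 to 122153083), the light chain of every class I molecule, had 10891, 10433, 12501, 10555 and 9894 normalised counts in young aortae. In old aortae it had 11944, 14049, 13847, 11560 and 12246. Young replicate 3 lay among the old aortae and the other 4 young aortae lay below all 5 old ones. The log2 fold change was 0.24 (SE 0.08), or 1.18-fold with a 95% interval from 1.05-fold to 1.33-fold. *B2m* missed the threshold (edgeR, adjusted p = 0.0747, unadjusted p = 0.0110). It passed in 4 of 21 alternatives, among them DESeq2 (adjusted p = 0.0433) and edgeR without young replicate 3 (adjusted p = 0.0302). Without old replicate 2 its log2 fold change was 0.19 and it was not called (edgeR, adjusted p = 0.149).

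*Tap1* and *Tap2* together encode the peptide transporter. *Tap1* (chromosome 17, 34187553 to 34197225) had 355, 261, 413, 233 and 209 normalised counts in young aortae and 284, 545, 345, 251 and 321 in old aortae. *Tap2* (chromosome 17, 34203527 to 34216321) had 895, 693, 878, 774 and 645 in young and 842, 1024, 815, 805 and 786 in old aortae. Old replicate 2 was the highest library for both, and the other old aortae lay inside the young range. Log2 fold changes were 0.25 for *Tap1* (SE 0.24, edgeR, adjusted p = 0.557) and 0.14 for *Tap2* (SE 0.10, edgeR, adjusted p = 0.406). Without old replicate 2 these values were 0.03 for *Tap1* (edgeR, adjusted p = 0.941) and 0.07 for *Tap2* (edgeR, adjusted p = 0.729).

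*Tapbp*, which encodes tapasin, was the member with the lowest log2 fold change. *Tapbp* (chromosome 17, 33915899 to 33929292) had 3961, 3527, 3658, 3878 and 3327 normalised counts in young aortae and 3017, 3381, 3210, 3248 and 3137 in old aortae. Young replicate 5 lay below old replicate 2, and every other young aorta lay above all old ones. The log2 fold change was -0.19 (SE 0.06), or 0.876-fold with a 95% interval from 0.801-fold to 0.959-fold, and it missed the threshold (edgeR, adjusted p = 0.0597, unadjusted p = 0.00760). DESeq2 called it lower (adjusted p = 0.0171), as did edgeR after a correction for GC content and length (adjusted p = 0.00685). Without old replicate 2 the log2 fold change of *Tapbp* was -0.22, and it was called (edgeR, adjusted p = 0.0481). It was called in 4 of 21 alternatives. Other genes overlap 29.0% of the exonic sequence of *Tapbp* on either strand, mostly *Gm19412*. The strand setting of the counting is not given in the sources used here.

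*Nlrc5* (chromosome 8, 94434356 to 94527272) had 153, 159, 258, 161 and 84.0 normalised counts in young aortae and 138, 277, 133, 84.8 and 115 in old aortae. Each group held 1 high mouse (young replicate 3 and old replicate 2) and 1 mouse near 84, and the groups overlapped fully. The log2 fold change was -0.12 (SE 0.34, edgeR, adjusted p = 0.858), with a 95% interval from 0.544-fold to 1.55-fold. Its sign changed with the mouse left out, from -0.47 without old replicate 2 to 0.10 without young replicate 3.

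All 10 members passed the low-count filter. EdgeR called 1 member higher and 0 lower (3 members, and 26.7% of all genes, had an unadjusted p below 0.05), against 6.48% of all genes called higher and 4.99% called lower. The member count was near the background and is not a result about these genes as a group. The groups did not overlap for 0 of the 10 members, against 9.92% of all genes tested. The median log2 fold change of the members was 0.11, and that of all genes tested was 0.0034. DESeq2 called 2 members higher (*H2-T23* and *B2m*) and 1 lower (*Tapbp*), against 7.24% and 6.33% of the 17134 genes with an adjusted p in DESeq2.

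**Figure D2:**
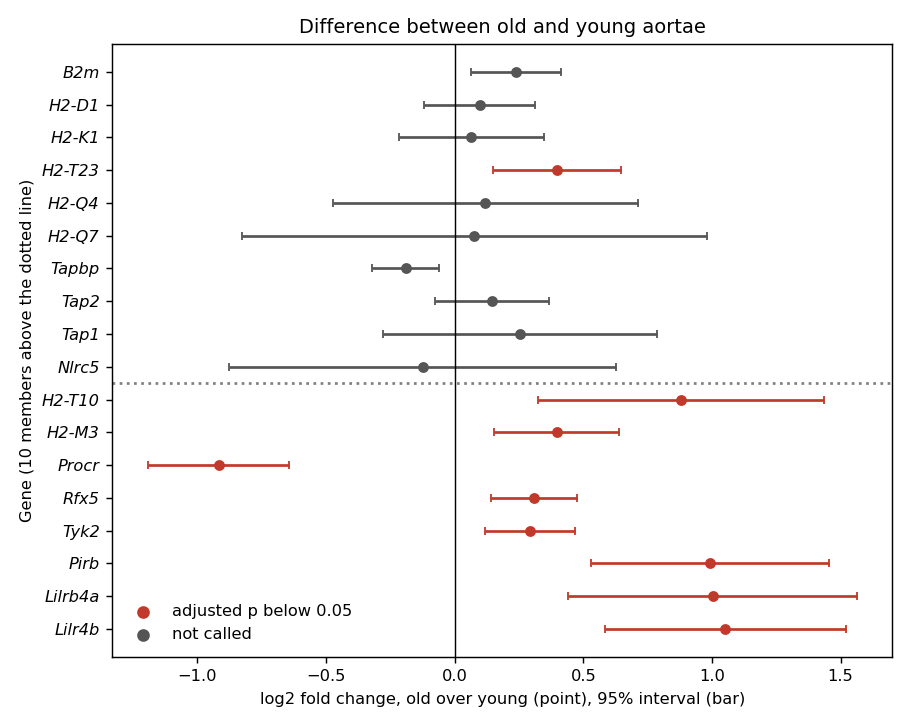
Log2 fold change of old over young aortae (points) with its 95% interval (bars) for the 10 members, above the dotted line, and for the 8 genes called among 58 tested genes of the rest of the pathway, below it. Red marks an adjusted p below 0.05 in edgeR, reached by *H2-T23* alone among the members, and the widest interval is that of *H2-Q7*, from -0.83 to 0.98.

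The make-up of the class I heavy chain counts was described within each library, where scaling between libraries plays no part. *H2-D1* took 53.0% ± 1.51 (SD, n = 5) of the summed counts of the 5 chains in young and 52.7% ± 2.07 in old aortae. *H2-K1* took 34.3% ± 0.903 in young and 33.3% ± 1.18 in old aortae. *H2-T23* took 6.02%, 6.20%, 6.02%, 5.74% and 7.00% in young replicates 1 to 5, and 7.20%, 7.57%, 7.40%, 7.33% and 8.20% in old replicates 1 to 5. The old aortae therefore all lay above the young ones in this share, including old replicates 1 and 4, whose *H2-T23* counts lay within the young range. *B2m* had 70.1 ± 4.00 counts per 100 heavy chain counts in young and 77.2 ± 6.06 in old aortae, and old replicate 2 (67.3) lay below the young mean. These shares are built from members and carry no test.

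**Figure D3:**
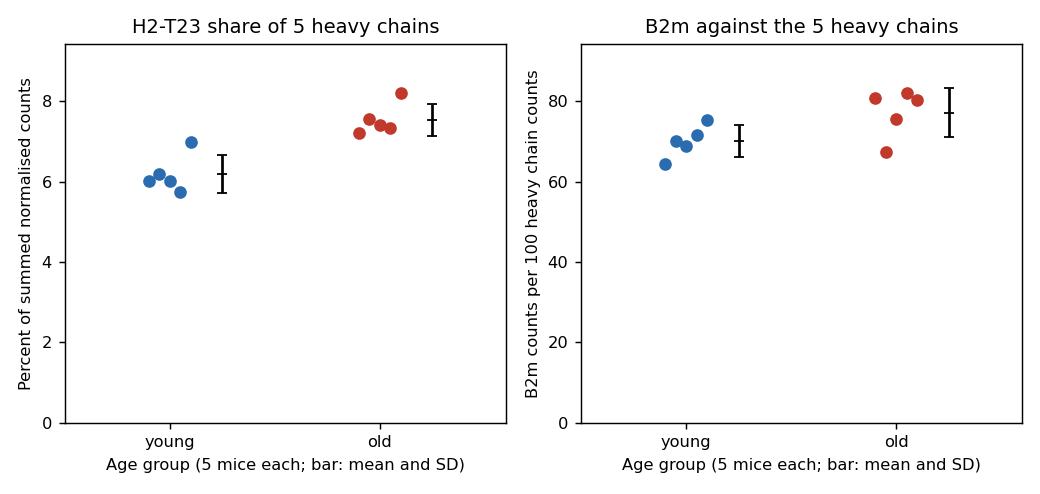
Left, *H2-T23* as a percent of the summed normalised counts of 5 class I heavy chains in each aorta; right, *B2m* counts per 100 heavy chain counts; points are mice, and the bar at the side of each group gives mean and SD (n = 5). The *H2-T23* share ran from 5.74% to 7.00% in young and from 7.20% to 8.20% in old aortae, whereas the *B2m* values overlapped.

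The rest of the pathway was taken from 6 lists with 80 genes, of which 58 were tested. EdgeR called 7 of them higher and 1 lower, against 6.48% of all genes called higher and 4.99% called lower. The median log2 fold change of the 58 genes was 0.0030. Among 17 further class I chains, some of them annotated as pseudogenes, 8 were tested and 2 were called higher. *H2-M3*, which presents formylated peptides, rose from 218 ± 32.1 to 286 ± 30.0 normalised counts (SD, n = 5), a log2 fold change of 0.40 (SE 0.11, edgeR, adjusted p = 0.0372). *H2-T10*, a ligand of some gamma-delta T cells, is annotated as a polymorphic pseudogene. It rose from 28.9 ± 4.85 to 53.0 ± 19.4 (log2 fold change 0.88, SE 0.26, edgeR, adjusted p = 0.0421), but 50.4% of its windows occur in other genes, mostly *H2-T22*. *H2-T22* itself had a log2 fold change of 0.26 and *H2-Q6* one of -0.27, and neither was called (edgeR, adjusted p = 0.0880 and 0.775).

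None of the 13 genes of peptide supply and loading was called. *Calr*, *Pdia3*, *Canx* and *Lnpep* were the most abundant, with log2 fold changes from -0.13 to -0.02. The immunoproteasome subunits had log2 fold changes of 0.55 (*Psmb8*, edgeR, adjusted p = 0.115), 0.25 (*Psmb9*, edgeR, adjusted p = 0.663) and 0.35 (*Psmb10*, edgeR, adjusted p = 0.0521). Their constitutive counterparts *Psmb5*, *Psmb6* and *Psmb7* lay between -0.05 and 0.01, and 0 of 5 genes of that list were called. Of 5 tested class I-like molecules 1 was called, as lower, against 4.99% of all genes called lower. *Procr*, the endothelial protein C receptor, fell from 488 ± 65.2 to 257 ± 46.9 normalised counts (log2 fold change -0.92, SE 0.13, edgeR, adjusted p = 0.000662). *Fcgrt*, *Mr1* and *Hfe* had log2 fold changes from -0.04 to 0.04.

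Of 24 tested regulators 2 were called, both higher, against 6.48% of all genes called higher. *Rfx5*, a subunit of the X box complex, rose from 460 ± 47.2 to 567 ± 30.1 normalised counts (log2 fold change 0.31, SE 0.08, edgeR, adjusted p = 0.0206), and its groups did not overlap. *Tyk2*, a kinase of the type I interferon receptor, rose from 725 ± 64.2 to 883 ± 89.7 (log2 fold change 0.29, SE 0.08, edgeR, adjusted p = 0.0344). *Irf1*, an interferon-induced activator of class I genes, had a log2 fold change of 0.46 and was not called (edgeR, adjusted p = 0.0512). *Ifng* had no count in any young aorta and 1 old aorta with a normalised count of 0.932.

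The receptor list had 3 tested genes, and all 3 were called higher, against 6.48% of all genes. *Pirb*, an inhibitory receptor of myeloid and B cells that binds class I, rose from 80.3 ± 18.6 to 159 ± 46.8 normalised counts (log2 fold change 0.99, SE 0.21, edgeR, adjusted p = 0.0103). *Lilrb4a* rose by 1.00 (edgeR, adjusted p = 0.0246) and *Lilr4b* by 1.05 on the log2 scale (edgeR, adjusted p = 0.00771). These 2 are related receptors of myeloid cells, and whether they bind class I was not examined here. Macrophage markers moved in the same direction, from 2810.5 to 3690.5 summed counts in young and from 3723.6 to 7162.5 in old aortae. Their part in the result was not tested. *Cd8a*, the coreceptor for class I on T cells, had 0.966 to 14.3 normalised counts in young and 0 to 14.0 in old aortae, below the filter.

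For most members the spread between mice of one age was wider than the difference between the age means. The highest young aorta had 3.43 times the *H2-Q7* and 3.07 times the *Nlrc5* level of the lowest, and the corresponding ratios among old aortae were 3.34 and 3.26. *Tapbp* was the steadiest, with ratios of 1.19 and 1.12. Young replicate 3 was the highest young aorta for 8 of the 10 members and young replicate 5 the lowest for 9. Old replicate 2 was the highest old aorta for 10 of 10 members and old replicate 4 the lowest for 8.

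**Figure D4:**
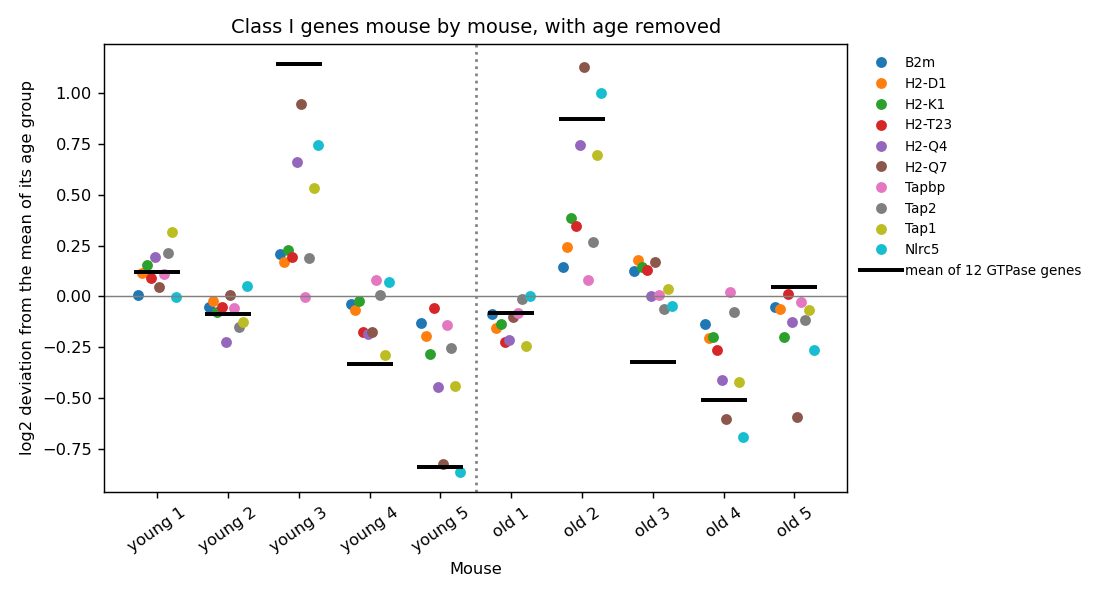
Deviation of each member from the mean of its age group, in log2 units, in the 10 aortae, with colours for genes and a black bar for the mean of 12 interferon gamma-inducible GTPase genes. Young replicate 3 and old replicate 2 stand high and young replicate 5 and old replicate 4 low for most members, whereas *Tapbp* stays close to 0.

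After the mean of each age group was removed, the 10 members were correlated in pairs over the 10 aortae, which share their scaling across genes. In the 45 pairs, Pearson's r ran from 0.34 to 0.98. The adjusted permutation p was below the threshold for 37 pairs by Pearson's r and for 28 by Spearman's rho, from 14400 exact permutations of mice within age groups. The share of all gene pairs that would pass was not computed, so that these counts are not shown to be particular to the members. *H2-Q4* and *Tap1* had the highest r (r = 0.98, exact permutation, adjusted p = 0.00104, rho = 0.95, exact permutation, adjusted p = 0.00446), with 0.97 after young replicate 3 and old replicate 2 were left out. *B2m*, which shares no sequence windows, followed *H2-D1* with r = 0.94 (exact permutation, adjusted p = 0.00104, rho = 0.92, exact permutation, adjusted p = 0.00601), and r was 0.90 without old replicates 2 and 3. With 2 mice left out from each pair, r ran from 0.29 to 0.97 over the 45 pairs and from 0.37 over the 36 pairs without *Tapbp*, so that some relations rest on those mice. Of the 9 pairs with *Tapbp* 2 passed by Pearson's r, and of the 36 pairs without it 35 passed.

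Another 3 sets of genes were set beside the members in the same way, giving 30 relations. How many of all genes would pass in these relations was not computed either. With the mean of 12 interferon gamma-inducible GTPase genes, 9 of 10 members passed by Pearson's r and 0 by Spearman's rho (smallest adjusted permutation p for rho 0.0792). The closest were *H2-Q4* (r = 0.94, exact permutation, adjusted p = 0.0167), *Tap1* (r = 0.91, exact permutation, adjusted p = 0.0167) and *Nlrc5* (r = 0.91, exact permutation, adjusted p = 0.0306). Without young replicate 3 and old replicate 2, r fell to between 0.31 and 0.76, so that part of the relation rests on these 2 mice. Their summed GTPase counts were 6707.1 and 6749.5, against 2317.6 to 4353.6 in the other 8 aortae.

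Both mice also had the highest endothelial marker sum of their group, 30970 and 21066. With endothelial markers, 2 members passed, *Tap2* (r = 0.86, exact permutation, adjusted p = 0.0309, and 0.70 without both mice) and *H2-Q4* (r = 0.76, exact permutation, adjusted p = 0.0474, and 0.28 without both mice). With leukocyte markers, *B2m* (r = 0.83, exact permutation, adjusted p = 0.0309) and *H2-D1* (r = 0.79, exact permutation, adjusted p = 0.0309) passed, and r without young replicate 3 and old replicate 3 was 0.70 and 0.78. Over all 10 members, r with leukocyte markers ran from 0.38 to 0.83, and from 0.52 to 0.85 without those 2 mice. For endothelial markers these ranges were 0.48 to 0.86, and -0.24 to 0.70 without young replicate 3 and old replicate 2. With either marker set, 0 members passed by Spearman's rho. None of the 5 endothelial markers was called between ages, although 4 (*Pecam1*, *Cdh5*, *Vwf* and *Tie1*) had log2 fold changes from -0.91 to -0.56 with unadjusted p of 0.0200 or less in edgeR (smallest adjusted p = 0.0554). The leukocyte sums of the groups did not overlap, and their part in the members' values was not tested. With the endothelial marker level as a covariate in edgeR, chosen after the data were seen, *H2-T23*, *B2m*, *Tap1* and *Tap2* were called higher, with log2 fold changes of 0.56, 0.33, 0.72 and 0.37 (adjusted p = 0.0187, 0.0456, 0.0445 and 0.0185), and 0 members were called lower. In that fit 5.21% of all genes were called higher and 4.3% lower. The endothelial markers tended to be lower in old aortae, so that this covariate is partly confounded with age. No fit was run with leukocyte markers, which were higher in old aortae, as the covariate.

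By the rule of highest r with *B2m* after group means were removed, the 5 closest genes outside the members were *H2-DMa*, *Adgrg6*, *Casp12*, *H2-Q6* and *Rpl14-ps1*. Their r over 10 aortae ran from 0.92 to 0.94, and these genes were picked for that value. Among the members, *H2-D1* stood at place 2 of 14613 genes by this measure, *H2-K1* at place 11 and *Tapbp* at place 1798.

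The 3 neighbouring immune groups are given side by side with the class I genes in the same comparison. None of the 9 tested MHC class II genes was called, with a median log2 fold change of 0.95 and wide spread, *Cd74* having 1198.4 to 3044.9 normalised counts in young and 2135.0 to 5366.5 in old aortae. None of the 12 interferon gamma-inducible GTPases was called (median 0.20). Of 20 type I interferon-stimulated genes 11 were called higher (median 0.73), against 6.48% of all genes. They were *Ifit1*, *Ifit2*, *Ifit3*, *Isg15*, *Mx2*, *Oas2*, *Oasl2*, *Irf7*, *Zbp1*, *Cmpk2* and *Ddx58*. The differences between these groups and the class I genes were not tested.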

How the data were processed

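RNA-seq libraries (stranded poly(A), per the labels) came from 10 male C57BL/6 aortae. The authors trimmed reads with fastp 0.20.0, aligned them to GRCm38 with STAR 2.7.0f and GENCODE annotation, and counted them with featureCounts (Subread 1.6.4). The deposited values are raw counts per gene symbol, without normalisation. Strand setting and multi-mapping treatment are not given in the sources used here.

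Old and young aortae were compared over all genes with edgeR 4.0.16 (quasi-likelihood F test, robust, TMM factors, filterByExpr, no covariates), and p-values were adjusted by Benjamini-Hochberg. Normalised counts use size factors of DESeq2 1.42.0. Positions, exonic lengths and shared 50-base windows come from GENCODE M21 (GRCm38) and promoters from RefSeq GRCm38.p6. Alternatives were DESeq2, limma-voom (limma 3.58.1), other scalings and filters, GC and length offsets, a replicate block, a stricter threshold (0.01), and leave-one-out fits. The tests were tested on simulated counts. Totals per library set counting error, and the edgeR p-values set the difference between ages against the variation between mice.

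The members and lists were chosen with earlier results of these data known. Genes named are the 10 members, genes called in the fixed lists, up to 4 of the most abundant per list, and the 5 genes closest to *B2m*. Others named beside them (among them *H2-T22*, *H2-Q6*, the immunoproteasome genes, *Irf1*, *Ifng* and *Cd8a*) were chosen after their values were seen, as were the endothelial covariate and the run of shared bases. Some results of the regulator list and of the motif search are not reported here.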

Additional observations from a re-analysis of the deposited data

Results flagged for a closer look

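Among 20 sets of 5 mice (10 genes in 2 age groups), 3 held a mouse far from the others by Dixon's criterion. Chance flags about 1 in 20 independent sets, but these sets share mice and the members vary together. The 3 flags therefore cannot be read against that rate. All 3 flags fell on old replicate 2, with 1398.1 normalised counts of *H2-Q4*, 1024.3 of *Tap2* and 276.78 of *Nlrc5*, each the highest old value. The same library had the largest mitochondrial share (11%), and its part in these values was not tested.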

How the results depend on the processing

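The same 22 alternatives were run on each count and fold change, 2 of them chosen after seeing the data (the endothelial covariate, and the omission of young replicate 3 and old replicate 2 together). EdgeR called 1676 genes, 658 at an adjusted p below 0.01 and 1132 to 2367 with 1 mouse left out. The count of members called higher (1) was 2 in DESeq2, 4 with the endothelial covariate, 0 at 0.01 and 0 to 2 with 1 mouse left out. The count called lower (0) was 1 in DESeq2, 1 with GC and length offsets and 0 to 1 with 1 mouse left out (*Tapbp*). *H2-T23* kept a positive log2 fold change throughout (0.30 to 0.56) and also lost its call with GC and length offsets (adjusted p = 0.0510), with adjusted p from 0.0152 to 0.102 over the alternatives. *B2m* passed the threshold in 4 of 21 alternatives at 0.05, as did *Tapbp*. The 5 genes closest to *B2m* were the same on the size-factor scale.

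Of the rest of the pathway, 7 genes were called higher, and 12 in DESeq2, 4 without the pair of mice, 1 at 0.01 and 2 to 9 with 1 mouse left out. The count called lower (1) was 2 with GC and length offsets and 1 to 3 with 1 mouse left out. Both directions gave 8, and 13 in DESeq2, 5 without the pair of mice, 2 at 0.01 and 3 to 12 with 1 mouse left out (4, 3, 4 and 4 without young replicates 2, 4 and 5 and old replicate 5).

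The sign turned for 4 uncalled genes. *H2-K1* reached -0.0056 without young replicate 5 and -0.0499 without old replicate 2, and *H2-Q4* -0.12 without old replicate 2. With 1 mouse left out, the highest values were 0.12 for *H2-K1*, 0.32 for *H2-Q4* and 0.39 for *H2-Q7*, and the lowest for *Nlrc5* was -0.47. *H2-Q7* reached -0.0079 with GC and length offsets, -0.09 without young replicate 5, -0.32 without old replicate 2 and -0.0052 without the pair of mice. *Nlrc5* reached 0.10 without young replicate 3, 0.02 without old replicate 4 and 0.41 with the endothelial covariate. The cause was not tested.

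Replicate numbers did not pair the mice (correlations of same-numbered mice from -0.30 to 0.13, and only numbers 3 and 5 correlated best with their own). With the replicate block 1261 genes were called, with 1 member higher and 0 lower. With 5 mice per group, the 95% intervals of *H2-Q7* and *Nlrc5* reach 1.97-fold and 1.55-fold.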
